A study of Rattus norvegicus with 2 samples.

Results

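The astrocyte marker genes Gfap, S100b, Aqp4, Aldh1l1, Ndrg2, Cst3, Clu, Apoe, Itpkb and Chrdl1 were examined in rat C6 glioma cells treated with small molecules and in the same line left undifferentiated. Each gene was represented by the probe sets whose only annotated symbol is that gene. By this rule 9 of the 10 genes had a probe set, 1 each, among 18511 such probe sets for 18166 genes. Aldh1l1 had none and was not analysed here. C6 is an established rat glioma cell line, and both samples were total RNA from it, grown in medium with serum, measured on Affymetrix whole-transcript arrays. There were 2 groups with 1 array each, SMiG (small molecule induced) and C6 (undifferentiated). The sample labels of SMiG name forskolin, which activates adenylyl cyclase, rapamycin, which inhibits mTORC1, and I-BET151, which inhibits BET bromodomain proteins. The protocol text, which stands on both samples, instead names CHIR99021, a GSK3 inhibitor, at 20 µM with forskolin at 100 µM over 35 days, so the treatment is not settled by the labels. The labels give no treatment for C6 other than that shared text. The series asks whether glioma cells can be turned into glia-like cells with such compounds.

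Astrocytes are the glia that support neurons, clear transmitters, carry lipids and line blood vessels with their endfeet. Their markers are of different kinds. Glial fibrillary acidic protein (Gfap) builds the filaments of mature and reactive astrocytes, and S100b is a calcium-binding protein of the S100 family. Others are secreted, such as cystatin C (Cst3), clusterin (Clu), apolipoprotein E (Apoe) and chordin-like protein (Chrdl1). The rest are the endfoot water channel Aqp4, the folate enzyme Aldh1l1, the inositol trisphosphate kinase Itpkb and the stress-responsive protein Ndrg2.

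Values are log2 expression levels as deposited, and a difference is SMiG minus C6 on that log2 scale. Levels of different genes come from different probes and are not set against each other. With 1 array per group no difference below has a replicate error, a p-value or a replicate check, and the number of arrays limits the precision. In bulk RNA, more cells expressing a gene and more RNA per cell cannot be told apart. A floor was taken from 1344 olfactory and vomeronasal receptor genes, which are not expected to be active in these cells, as the 95th percentile of their levels, 4.96 in SMiG and 4.86 in C6. A gene counted as detected when either array exceeded its floor, which held for 10903 genes. Of the receptor genes themselves 5.88% were detected. The differences of the receptor genes had an SD of 0.32, and the central 95% of them lay between −0.55 and 0.72. That spread comes from dim probes of 1 pair of arrays and holds no variation between cultures.

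The markers did not move as a block. Of the 8 detected, 4 were at least 2-fold higher in SMiG (Itpkb, Cst3, Clu and S100b), 2 were lower by as much (Ndrg2 and Chrdl1) and 2 were within 2-fold (Gfap and Apoe). Among all detected genes the share past 2-fold was 3.2% on the higher side in SMiG and 6.53% on the lower side. The median difference of the 8 was 0.55, against −0.004 over all detected genes. The genes were chosen with earlier results of these arrays known, so the excess over these shares is a description. All 8 were above the floor on both arrays, so none was counted through a single array, and Aqp4 was below the floor on both.

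**Figure D1:**
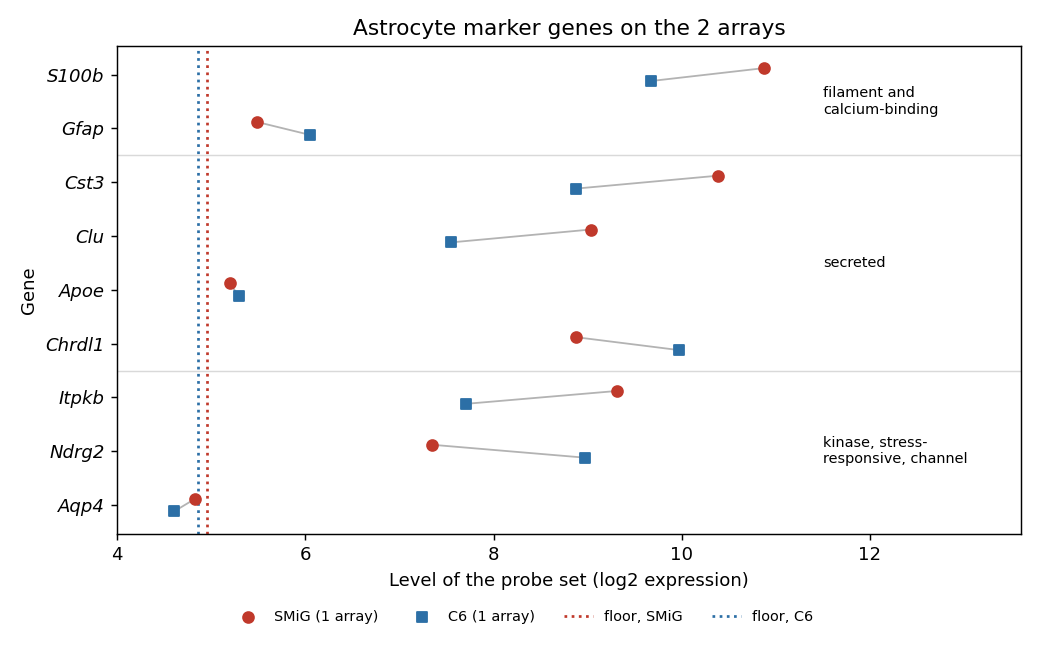
Log2 expression level of the 9 marker genes with a probe set (rows) in SMiG (red circles) and C6 (blue squares), 1 array each, with the floor of each array as a dotted line. S100b, Cst3, Clu and Itpkb lie to the right in SMiG, Chrdl1 and Ndrg2 to the left, and Aqp4 is below the floor on both arrays.

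The filament and calcium-binding markers had opposite signs. S100b (probe set 17757762) measured 10.87 in SMiG and 9.67 in C6, with a difference of 1.20 and a 2.30-fold higher level. The SMiG array was the brighter of the pair, and 212 of the 10903 detected genes had a larger difference. Gfap (probe set 17661998) measured 5.48 in SMiG and 6.05 in C6, with a difference of −0.56. It was thus 1.48-fold lower in SMiG, and 1746 detected genes had a lower difference. On both arrays Gfap was close to the floor, by 0.53 in SMiG and 1.18 in C6, whereas S100b was above it by 5.92 in SMiG and 4.81 in C6. The difference of Gfap lies at the edge of the central range of the receptor genes, −0.55 to 0.72.

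Both genes belong to families whose other members were measured. Of the S100 list, 7 of 14 genes with a probe set were detected, and S100b was the only one at least 2-fold higher, with none at least 2-fold lower. Its 6 detected relatives had differences from −0.60 for S100a4, a protein tied to cell motility, to 0.61 for S100a1. The median of these 6 was 0.24. S100a6, calcyclin, was at 8.54 in SMiG and 7.99 in C6. Of the 9 detected genes of the intermediate filament list other than Gfap, 1 had a measured difference past 2-fold, Prph, encoding peripherin of peripheral neurons. Prph was under the SMiG floor, and its bound of at least 1.79-fold lower does not reach 2-fold. The filament genes typical of immature astroglia were nearly equal on the arrays. Vimentin (Vim) was at 12.74 in SMiG and 12.74 in C6, and nestin (Nes) at 8.59 in SMiG and 8.74 in C6. Synm, encoding synemin, which joins such filaments, was at 6.62 in SMiG and 6.19 in C6. Known binding partners of S100b were also listed, and none of the 7 detected was past 2-fold. The nearest was Mdm2, which restrains p53, at 7.87 in SMiG and 8.87 in C6, and the scaffold gene Iqgap1 had a difference of −0.35.

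Of the secreted markers, 2 were higher in SMiG, 1 was lower and 1 was nearly equal. Cst3 (probe set 17778016), encoding an inhibitor of cysteine proteases, measured 10.38 in SMiG and 8.87 in C6, with a difference of 1.51 and a 2.84-fold higher level. Clu (probe set 17699707), encoding a secreted chaperone also called apolipoprotein J, measured 9.03 in SMiG and 7.54 in C6, with a difference of 1.49 and 2.80-fold. These differences were close in size, with 95 detected genes above that of Cst3 and 101 above that of Clu. Chrdl1 (probe set 17871481), encoding an antagonist of bone morphogenetic proteins (BMPs), was at 8.87 in SMiG and 9.97 in C6. Its difference was −1.09, a 2.13-fold lower level, and 582 detected genes had a lower one. Apoe (probe set 17630332), encoding the main lipid carrier that astrocytes release, measured 5.20 in SMiG and 5.29 in C6, with a difference of −0.09. Apoe was above the floor by only 0.24 in SMiG and 0.43 in C6, the smallest margins of the 8 detected markers.

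The genes around Cst3 included its targets, the cysteine cathepsins. Of 8 detected cystatin, cathepsin and legumain genes other than Cst3, 1 was higher in SMiG by 2-fold or more, and 1, Ctsk, had a measured difference past 2-fold on the lower side. Such shares over all detected genes were 3.2% higher and 6.53% lower. Ctsf, encoding the lysosomal protease cathepsin F, was at 7.20 in SMiG and 6.03 in C6. Lgmn, encoding legumain, a protease that cystatin C also inhibits, was at 9.79 in SMiG and 8.98 in C6. Ctsk, encoding the collagen-cutting cathepsin K, was under the SMiG floor, and its bound of at least 1.60-fold lower does not reach 2-fold, against a measured difference of −1.36. The median of these 8 genes was 0.19, below the 1.51 of Cst3.

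Apoe and Clu share receptors and lipid exporters. Among 11 detected genes of the apolipoprotein and lipid export list other than these 2, only Mylip, encoding a ubiquitin ligase that removes lipoprotein receptors, was past 2-fold. It was at 7.10 in SMiG and 5.91 in C6. The cholesterol exporter genes did not pass 2-fold, with differences of −0.95 for Abcg4, −0.77 for Abcg1, −0.62 for Abca1 and, for the related transporter gene Abca7, named after its value was seen, −0.11. Of the 11 detected receptor and receptor-associated genes, 2 were higher in SMiG by 2-fold or more and 1 was lower by as much. Shares of all detected genes past 2-fold were 3.2% higher and 6.53% lower. The receptor chaperone gene Lrpap1 was 2.64-fold higher, at 9.76 in SMiG and 8.36 in C6. Sort1, encoding the sorting receptor sortilin, was 2.02-fold higher. Vldlr, encoding a receptor for apolipoprotein E and reelin, was 5.12-fold lower, at 7.50 in SMiG and 9.85 in C6. Lrp1, encoding a large receptor for apolipoprotein E, had a difference of −0.93.

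Chrdl1 was 1 of 3 genes at least 2-fold lower in SMiG in the list of BMP antagonists and ligands, with 10 detected and none at least 2-fold higher. Over all detected genes 6.53% were lower and 3.2% higher by as much. Fst, encoding follistatin, which binds activins, was under the SMiG floor, with a difference of −3.40 and a bound of at least 8.21-fold lower. Nbl1, encoding another secreted BMP antagonist, was 2.50-fold lower, at 5.33 in SMiG and 6.65 in C6. The ligand gene Bmp7 was just inside the threshold at 8.56 in SMiG and 9.51 in C6. The median difference of the 10, Chrdl1 included, was −0.16, and with a stricter floor, set by the 99th percentile instead, it was −1.03.

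**Figure D2:**
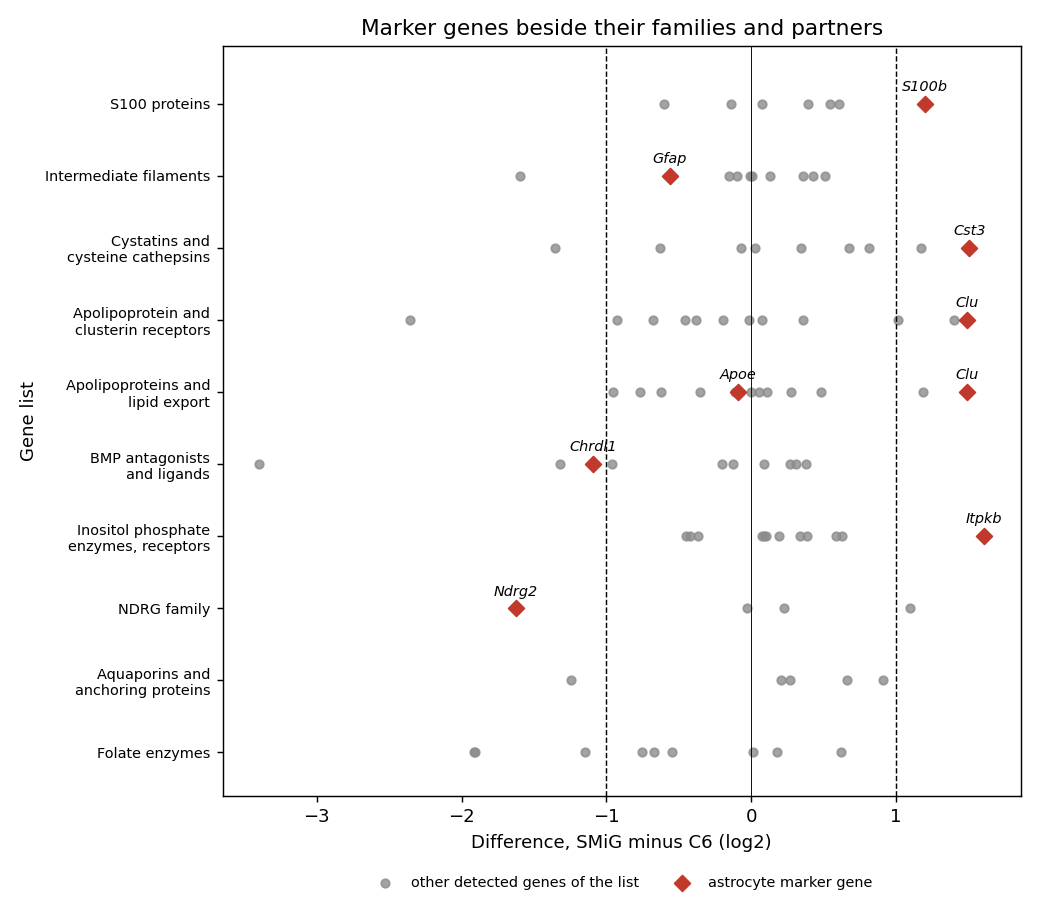
Difference, SMiG minus C6 on the log2 scale (x axis), of each detected marker gene (red diamonds) and of the other detected genes of its family or partner list (grey circles, 1 list per row), with dashed lines at 2-fold. Clu is drawn on the row of its receptors as well as on that of the apolipoproteins; the Aqp4 and Aldh1l1 rows hold no diamond because Aqp4 was not detected and Aldh1l1 had no probe set. S100b at 1.20, Cst3 at 1.51 and Itpkb at 1.61 lie to the right of each other gene on their rows, and Ndrg2 at −1.62 to the left.

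The remaining markers held the highest and the lowest difference of the 9. Itpkb (probe set 17682563), encoding a kinase that turns the calcium-releasing messenger inositol trisphosphate into the tetrakisphosphate, was at 9.31 in SMiG and 7.70 in C6. The difference was 1.61, a 3.05-fold higher level, and 78 detected genes had a larger one. Ndrg2 (probe set 17702067), a gene of the NDRG family that astrocytes express strongly, was at 7.35 in SMiG and 8.97 in C6. The difference was −1.62, a 3.08-fold lower level, and 257 detected genes had a lower one. At a threshold of 3-fold these were the only 2 markers counted, 1 in each direction, where the shares of all detected genes were 0.734% on the higher side in SMiG and 2.51% on the lower side. Aqp4 (probe set 17724939) was at 4.83 in SMiG and 4.60 in C6, below the floor on both arrays, and no fold is given.

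Genes related to Itpkb and Ndrg2 differed from them in size or sign. None of the 11 detected inositol phosphate enzyme and receptor genes other than Itpkb was past 2-fold, and their median difference was 0.11. The calcium-channel genes Itpr1 and Itpr3, encoding receptors for inositol trisphosphate, had differences of 0.62 and 0.59. Itpr2 was under the SMiG floor, with a bound of at least 1.32-fold lower. In the NDRG family, Ndrg3 was 2.14-fold higher in SMiG, at 7.04 against 5.95 in C6, while Ndrg2 was lower. The stress-induced Ndrg1 was at 8.40 in SMiG and 8.17 in C6, and Ndrg4 at 5.27 in SMiG and 5.30 in C6, close to the floor.

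The neighbourhoods of Aqp4 and Aldh1l1 were also read. Only 5 of 14 other aquaporin and anchoring genes were detected. The water channel gene Aqp1, which is found in some gliomas, was 2.37-fold lower at 5.71 in SMiG and 6.96 in C6. Dag1, encoding dystroglycan, which anchors Aqp4 at endfeet, was at 11.70 in SMiG and 10.79 in C6, within 2-fold. Around Aldh1l1, 9 folate enzyme genes were detected, of which 3 were lower in SMiG by 2-fold or more and none higher by as much. Shares of all detected genes past 2-fold were 6.53% lower and 3.2% higher. The mitochondrial enzyme genes Mthfd2, Shmt2 and Mthfd1l had differences of −1.92, −1.91 and −1.15. The mitochondrial paralogue Aldh1l2 was below the floor on both arrays.

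The secreted markers were not set apart from the filament and calcium-binding ones by their differences. The median was 0.70 over the 4 secreted genes, which ran from −1.09 for Chrdl1 to 1.51 for Cst3. It was 0.32 over S100b and Gfap, which ran from −0.56 to 1.20. Each group held genes on either side of 0, and the gap between the medians was smaller than the range within either group. The median of the secreted genes depends on Apoe, which is close to the floor: with a stricter floor, from the 99th percentile of these receptors (5.99 in SMiG, 5.91 in C6), Apoe dropped out and the median of the other 3 was 1.49. At that floor 7 markers were left, and Gfap was above it in C6 but not in SMiG.

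**Figure D3:**
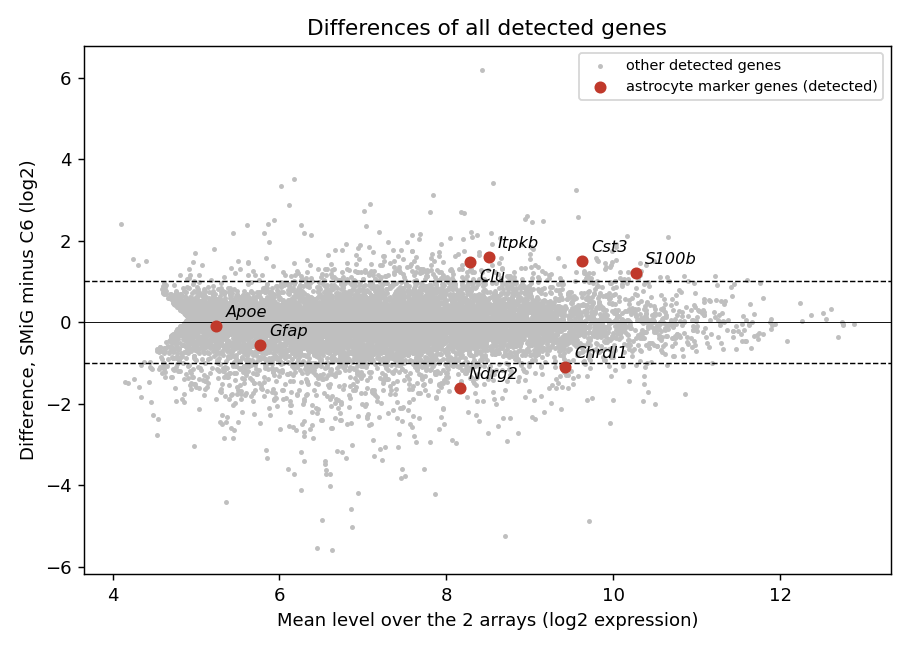
Difference, SMiG minus C6 on the log2 scale (y axis), against the mean log2 level over the 2 arrays (x axis) for the 10903 detected genes (grey), with the 8 detected marker genes in red and dashed lines at 2-fold. Gfap and Apoe lie near the floor and within 2-fold, and the other 6 markers lie outside the dashed lines.

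Sequences around the starts of the markers were read next. RefSeq windows of 300 bases on GRCr8, from 250 bases before to 50 after a start, were found for 9 of the 10 genes, 13 windows in all. Windows were matched by gene symbol, and Clu had none. The windows of S100b and Cst3, both higher in SMiG, Ndrg2, lower in SMiG, and Gfap, the best known astrocyte marker, are printed 5′ to 3′ in the direction of the gene. For Ndrg2 it is the first of 2 windows. Capitals mark a GC box, whose letters are GGGCGG. They also mark a CAAT-type box, searched with the letters CCAAT. The third kind is a TATA element, searched with the letters TATAA. All were searched on both strands, and no marked matches overlap.
S100b, chr20:12381032-12381331, minus strand: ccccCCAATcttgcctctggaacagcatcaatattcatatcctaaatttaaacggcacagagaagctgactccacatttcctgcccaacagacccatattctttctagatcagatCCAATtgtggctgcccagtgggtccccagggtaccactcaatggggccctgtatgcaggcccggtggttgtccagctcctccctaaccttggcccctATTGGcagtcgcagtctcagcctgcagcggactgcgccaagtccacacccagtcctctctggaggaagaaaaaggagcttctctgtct
Cst3, chr3:156793888-156794187, minus strand: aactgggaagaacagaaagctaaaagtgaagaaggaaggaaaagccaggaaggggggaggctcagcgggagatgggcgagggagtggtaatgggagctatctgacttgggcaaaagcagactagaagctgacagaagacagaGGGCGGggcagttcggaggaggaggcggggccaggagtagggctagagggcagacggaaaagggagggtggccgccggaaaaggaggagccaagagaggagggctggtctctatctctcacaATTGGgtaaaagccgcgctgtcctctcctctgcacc
Ndrg2, chr15:27083071-27083370, minus strand: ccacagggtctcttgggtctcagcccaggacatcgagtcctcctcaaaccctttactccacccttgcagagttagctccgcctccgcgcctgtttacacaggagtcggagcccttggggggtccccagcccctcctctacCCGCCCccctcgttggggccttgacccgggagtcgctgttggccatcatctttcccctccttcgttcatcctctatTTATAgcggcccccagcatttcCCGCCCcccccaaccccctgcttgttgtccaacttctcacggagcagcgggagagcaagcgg
Gfap, chr10:88361612-88361911, minus strand: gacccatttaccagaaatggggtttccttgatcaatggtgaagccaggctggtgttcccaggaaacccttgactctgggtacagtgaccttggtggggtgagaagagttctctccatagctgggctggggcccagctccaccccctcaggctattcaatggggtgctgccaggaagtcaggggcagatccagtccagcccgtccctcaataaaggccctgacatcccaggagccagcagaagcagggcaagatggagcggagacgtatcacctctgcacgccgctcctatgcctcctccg

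The S100b window held 3 CAAT-type boxes and no GC box. The Cst3 window held 1 GC box and 1 CAAT-type box, and the Ndrg2 window 2 GC boxes and 1 TATA element. The Gfap window held none of these, nor did those of Itpkb and Chrdl1. Over all 33469 RefSeq windows of this length, 33.1% held a GC box, 37.5% a CAAT-type box and 26.2% a TATA element, so each is common. The STAT site TTCNNNGAA and the cyclic AMP response element TGACGTCA were also searched on both strands. These stood in 8.87% and 1.83% of all windows, and in none of the 13 windows of the markers. The G+C content was 54% for S100b, 58% for Cst3, 62.7% for Ndrg2 and 58.7% for Gfap, against a median of 51.7% over all windows. A match is a description of letters, and its absence says only that the letters are not in this window.

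The nearest genes with a probe set on either side of each marker, in the RefSeq order, were within 2-fold where they could be measured. Of 18 such neighbours 6 were detected, and none of the 6 was past 2-fold. Among all detected genes, 9842 of 10903 were also within 2-fold, so this is no trait of the neighbours. Beside Itpkb, the presenilin gene Psen2 was at 5.94 in SMiG and 5.54 in C6. Beside Chrdl1, Ammecr1 was higher in SMiG at 6.50 against 6.11 in C6. Dip2a beside S100b, at 7.05 in SMiG and 7.06 in C6, and Kif18b beside Gfap, at 9.01 in SMiG and 8.95 in C6, were nearly equal on the arrays. The mitochondrial import gene Tomm40 beside Apoe had a difference of −0.09, and Apoc1 on the other side of Apoe was below the floor. Both neighbours of Ndrg2, of Cst3 and of Clu were below the floor on both arrays.

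Other genes used as astrocyte markers were also split. The wider list, which holds none of the 10 markers, had 46 genes with a probe set, of which 24 were detected, 4 higher in SMiG by 2-fold or more and 4 lower by as much. Among all detected genes, 3.2% were higher in SMiG and 6.53% lower by as much. The median difference of the 24 listed genes was 0.33, and 16 of them were within 2-fold. The higher genes included Gpr37l1, a glial receptor gene, at least 6.50-fold. The others were named after their values were seen. Their log2 differences were 1.98 for Lrig1, a brake on growth factor receptors, 1.84 for Fgfr3, a receptor of astrocytes, and 1.03 for the peroxiredoxin gene Prdx6. The lower ones were Slc7a11, encoding the cystine transporter subunit xCT, at −3.77, the urea transporter gene Slc14a1 at −2.41 and the gap junction gene Gja1 at −2.30, with Timp3, an inhibitor of matrix proteases named after its value was seen, at −1.32. The glutamate transporter genes Slc1a2 and Slc1a3, which define working astrocytes, and the glial factor gene Sox9 were below the floor on both arrays, as was Aqp4. Several defining markers of astrocytes were thus not detected, while Gfap was above the floor on both arrays. S100b, Cst3, Clu, Itpkb, Ndrg2 and Chrdl1 are also expressed by other cell types.

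Transcription factor genes linked to astrocytes did not share 1 direction. Of 18 detected astrocyte transcription factor genes, 1 was higher in SMiG by 2-fold or more and 3 were lower by as much. Their median was −0.04, and the shares of all detected genes past 2-fold were 3.2% higher and 6.53% lower. Stat3, whose product binds the Gfap promoter in rodents, was 2.15-fold higher at 9.65 in SMiG and 8.55 in C6. Gfap, close to the floor, had a difference of −0.56, and its relation to Stat3 was not tested. Nfia, which opens astrocyte genes in development, was at 9.91 in SMiG and 9.79 in C6. The BMP target Id3 and the Notch target Hes1 were at −2.02 and −1.86, and Runx2 at −1.52. Of 18 detected genes linked to reactive astrocytes, 1 was at least 2-fold higher, the ferroxidase gene Cp at 10.27 in SMiG and 6.85 in C6, and 4 at least 2-fold lower. The lower ones were Srgn at −1.46, Cd14 at −1.44, Emp1 at −1.37 and, named after its value was seen, the immunoproteasome gene Psmb8 at −1.09.

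**Figure D4:**
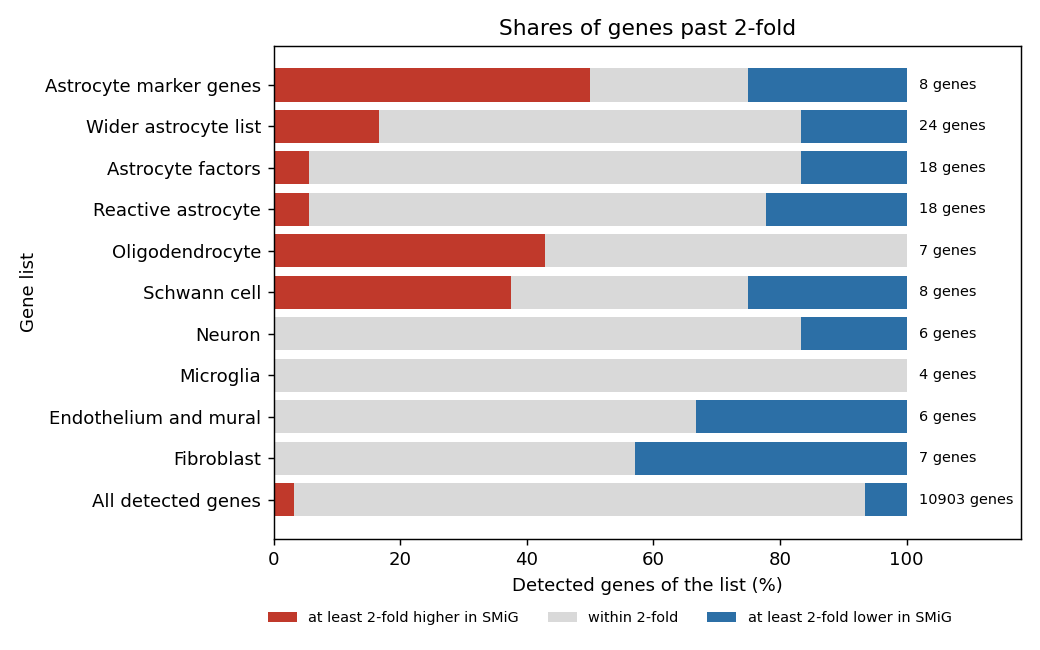
Share of the detected genes of each list (x axis, %) that were at least 2-fold higher in SMiG (red), within 2-fold (grey) or at least 2-fold lower in SMiG (blue), with the number of detected genes at the right; the astrocyte marker genes are at the top and all detected genes at the bottom. The marker genes have 4 of 8 in red and 2 of 8 in blue, and the wider astrocyte list 4 and 4 of 24.

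Markers of other cell types were read beside these genes, since S100b is also a marker of Schwann cells and of oligodendrocyte lineage cells. Of the 9 oligodendrocyte markers with a probe set, 7 were detected, 3 of them on both arrays and 4 in SMiG alone, and 3 were at least 2-fold higher in SMiG. These were Enpp2, at least 7.10-fold, Cnp with a log2 difference of 1.52 and Sox10 with 1.01. The other genes above the floor in SMiG alone, Mog, Mbp and Mag, were close to it. Their bounds were at least 1.074-fold for Mog, 1.098-fold for Mbp and 1.237-fold for Mag. Each was below the stricter SMiG floor of 5.99, so their detection depends on the choice of floor. The mean log2 level of the 9 was 6.45 in SMiG and 5.62 in C6. The Schwann cell list had 3 of 8 detected genes at least 2-fold higher, Pmp2 at 3.12, Prx at 1.65 and Sox10, and 2 at least 2-fold lower, Cdh19, at least 3.40-fold, and Scn7a at −1.52. Its mean level over 9 genes was 7.91 in SMiG and 7.61 in C6. The relation of these 2 lists to the differences of S100b, Cst3 and Clu was not tested.

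The neuron, microglia, endothelium and fibroblast lists had no detected gene at least 2-fold higher in SMiG. With so few genes detected in each, that is near the share of all detected genes, 3.2%. On the lower side the share of all detected genes was 6.53%. Of 7 detected genes of the fibroblast list 3 were at least 2-fold lower, Postn, at least 19.4-fold, Pdgfra at −1.17 and Col1a1 at −1.15. Pdgfra was counted on this list only, and at 10.61 in C6, a glioma line, it is not particular to fibroblasts. The mean level of the 10 genes of the list was 5.66 in SMiG and 6.46 in C6. Of 6 detected endothelial and mural markers Pdgfrb and Flt1 were at least 2-fold lower, Flt1 at least 2.83-fold, with a mean of 5.02 in SMiG and 5.65 in C6 over 7 genes. Of 6 detected neuron markers Gad1 was lower at −2.08, and the mean over 10 genes was 5.24 in SMiG and 5.44 in C6. None of 4 detected microglia markers was past 2-fold, and the mean over 10 genes was 4.21 in SMiG and 4.33 in C6. These means take in genes below the floor, and single genes weigh on them, such as Postn with a measured difference of −5.55. Median differences of the detected genes were −0.30 for fibroblast, −0.38 for endothelium and mural, −0.04 for neuron and −0.21 for microglia. Each list had detected genes on both sides of 0. Both samples come from the same line, so the detected genes of these lists describe expression in cells of that line. The other listed genes were below the floor on both arrays or had no probe set. The relation of these lists to the lower level of Ndrg2 and Chrdl1 was not tested.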

How the data were processed

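RNA of 1 SMiG and 1 C6 sample, grouped by title, was hybridised after biotin labelling with terminal transferase, per the labels' protocols. The deposited table holds log2 expression of 36685 probe sets on each array. The log base was read from the values, whose highest, 13.09, exceeds 11.09, the top of a 16-bit scanner in natural logs. How the authors corrected background, normalized and summarised probes is not given in the sources used here. Column medians were 4.86 (SMiG) and 4.84 (C6), and no further normalization was applied. On both arrays 1011 probe sets have identical values, none of a marker. Of the probe sets, 18511 had 1 symbol in the platform annotation, 575 several and 17599 none, and only the first kind was used. Probe sets of a gene were averaged.

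A fold against an array at or below the floor is the brighter level over that floor, given as "at least". Without replicates there is no test. RefSeq (GRCr8) gave gene order, matched by gene number for 18052 genes, and promoter windows, matched by gene symbol. The rule for named genes took all 10 markers, up to 4 detected genes per list with the largest absolute difference, every gene of lists with 4 or fewer, 11 fixed genes and the nearest neighbours. Members and lists were chosen with earlier results of these data known. Counting was tested on simulated data. Alternatives were a 99th-percentile floor, no floor, values raised to the floor, median centring, lowess (span 0.3), quantile normalization, brightest probe set, single probe sets and thresholds of 1.5-fold and 3-fold. Python 3.11.15, numpy 2.4.6, pandas 2.3.3, statsmodels 0.14.6 and matplotlib 3.10.9 were used.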

Additional observations from a re-analysis of the deposited data

How the results depend on the processing

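Of the 10 alternatives 8 gave marker differences, and 4 of these (values raised to the floor, median centring, lowess and quantile normalization) shifted any. No marker difference moved by more than the SD of the receptor genes (0.32) or changed sign. S100b ranged from 1.20 to 1.21, Itpkb from 1.61 to 1.63, Cst3 from 1.51 to 1.52, Clu from 1.49 to 1.51, Chrdl1 from −1.09 to −1.08, Ndrg2 from −1.62 to −1.59, Gfap from −0.56 to −0.52, Apoe from −0.12 to −0.08 and Aqp4 from 0.10 to 0.23. With the 99th-percentile floor the median of the secreted markers was 1.49, over 3 genes. At 1.5-fold the wider astrocyte list had 9 higher genes, and the other lists together, without the markers, had 25 higher and 41 lower, against 12 and 24 at 2-fold. At 3-fold 1 marker was higher and 1 lower, and the other lists had 4 and 12. With values raised to the floor the other lists had 22 lower genes, since Prph and Ctsk no longer counted. With the 99th-percentile floor the list medians moved to −1.03 for BMP antagonists (−0.16 before), −2.18 for endothelium (−0.38), −1.16 for fibroblast (−0.30), 1.52 for oligodendrocyte (0.50), 0.68 for cystatins with Cst3 (0.34) and −0.17 for aquaporins (0.26). With no floor those of the S100 family and endothelium moved to 0.04 and 0. In 15 of 151 recomputed list medians, over 6 lists, the sign changed, each from a median between −0.04 and 0.26. No paired analysis was possible because each group has 1 array. Without replicates, culture and array cannot be told apart from treatment, and dim genes such as Gfap, Apoe and Aqp4 are limited by signal over background.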
